A study of Mus musculus with 15 samples.

Results

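Genes tied to glucocorticoid signalling were followed in 5 mouse tissues after a short diet restriction (DR) and after a return to free feeding. The 8 genes (Fkbp5, Tsc22d3, Sgk1, Zbtb16, Mt1, Mt2, Nr3c1 and Hsd11b1) were chosen by name, and each was found at 1 locus among 23589 loci that carry a gene name, out of 33603 loci in all. Corticosterone, the main glucocorticoid of mice, enters cells and binds the glucocorticoid receptor, which Nr3c1 encodes. The hormone-bound receptor moves to the nucleus, binds short palindromic DNA elements and changes the transcription of nearby genes. Food shortage is a classical stimulus of corticosterone release, and the response differs between tissues because each tissue has its own receptor level and its own enzymes for making or removing the active hormone.

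Male C57BL/6 mice gave 2 brain regions (hypothalamus and hippocampus) and 3 other tissues (liver, the mucosa of the colon, and epididymal fat), and rRNA-depleted RNA was sequenced with the strand kept. Mice fed ad libitum (AL) were 5 months old. DR mice received 40% less food from 4 months of age for 1 month and were also 5 months old. DR-AL mice had the same month of restriction, were then returned to free feeding and were killed at 7 months, so that in this group diet history and age cannot be told apart. Each library is a pool of RNA from 5 mice, and with 1 library per tissue and diet (15 in all) there is no replicate check within a tissue. The tissues of a diet group share their mice. In such bulk RNA, fewer cells of a type and less RNA per cell cannot be told apart.

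Expression levels are given as CPM, the counts of a gene scaled to a total of 1000000 counts on named loci in each library. A gene was called different between 2 libraries of a tissue when the Z test named in the methods of the study gave an adjusted p (Benjamini-Hochberg, over all genes tested in that tissue) below 0.05 and the higher level exceeded the lower by at least 25% (a log2 fold change of 0.32 or more in either direction). The call compares libraries, not conditions, because it holds counting error only. Intervals of log2 fold changes are exact 95% Clopper-Pearson intervals and also cover counting error only. All comparisons against AL within a tissue share 1 AL library, and the comparisons of DR-AL with DR share libraries with both.

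The libraries held 21767088 to 40500130 counts. Marker genes of each labelled organ were high in it: the 8 hepatocyte markers summed to 48000 to 55636 CPM in liver (Alb was at 0 at its own locus in every library), the 8 adipocyte markers to 22517 to 34369 CPM in fat, and the 8 colon epithelium markers to 29646 to 30356 CPM in colon. The 8 hypothalamic markers summed to 750.3 to 909.1 CPM in hypothalamus, and the 8 hippocampal and telencephalic markers to 6000 to 6143 CPM in hippocampus. The fat libraries stood apart. In AL mice, 68 genes were high in liver and at or below 1% of that level in colon and both brain regions. Their median in AL fat was 13.7% of their AL liver level, against 0.137% in DR fat and 0.0252% in DR-AL fat. The 7 testis germ cell markers summed to 5.45, 527.4 and 2586 CPM in AL, DR and DR-AL fat, the 8 epididymis markers to 856.3, 3056 and 4985 CPM, and the 6 smooth muscle markers to 1247, 3702 and 1215 CPM. In hypothalamus, 5 telencephalic genes stood at a median of 0.258%, 2.72% and 1.72% of their AL hippocampus level in the AL, DR and DR-AL libraries. Prox1, Wfs1 and Camk2a of that list were left out of this median. The whole list of 8 telencephalic markers summed to 951.3, 955.2 and 764.5 CPM. The part that these other tissues had in the results was not tested, except where a value is given beside a result.

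Promoter sequences of the genes are shown first, because the group is defined by response to a hormone that acts through DNA elements. RefSeq promoter windows (GRCm38.p6, 250 bases before to 50 after a start site) were found for 6 of the 8 genes, in 13 windows. The full glucocorticoid response element searched was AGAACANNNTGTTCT, which reads the same on both strands and contains the shorter sites AGAACA and TGTTCT, 1 of which or both are in 19.0% of windows. It was present in 3 of 32851 windows of 27025 genes (0.00913%), and 1 of these was an Sgk1 window at chr10:21993640-21993939 (plus strand), where the element, in capitals, begins at -189 from the start site.

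Sgk1: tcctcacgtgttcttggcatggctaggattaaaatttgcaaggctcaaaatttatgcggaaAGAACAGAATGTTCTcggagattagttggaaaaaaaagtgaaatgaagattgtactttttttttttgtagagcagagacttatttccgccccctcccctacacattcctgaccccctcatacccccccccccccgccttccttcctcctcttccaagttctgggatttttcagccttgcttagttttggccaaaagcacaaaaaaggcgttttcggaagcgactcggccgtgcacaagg

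Mt1 and Mt2 encode metallothioneins, small proteins that bind zinc and copper, and are induced both by glucocorticoids and by metals through metal response elements (MREs). The MRE cores TGCACNC and TGCGCNC, which differ in 1 base and so cannot match at the same place on a strand, were searched on both strands. The Mt2 window (chr8:94172368-94172667, plus strand) held 4 cores, a number reached by 0.517% of all windows, and the Mt1 window (chr8:94178839-94179138, plus strand) held 3, reached by 1.97%. The cores are in capitals.

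Mt2: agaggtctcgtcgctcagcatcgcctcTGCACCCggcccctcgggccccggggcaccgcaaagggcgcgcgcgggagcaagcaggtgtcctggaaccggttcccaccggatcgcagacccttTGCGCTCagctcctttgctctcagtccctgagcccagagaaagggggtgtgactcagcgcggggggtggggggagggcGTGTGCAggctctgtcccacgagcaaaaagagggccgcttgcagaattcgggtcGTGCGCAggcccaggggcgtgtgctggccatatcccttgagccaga
Mt1: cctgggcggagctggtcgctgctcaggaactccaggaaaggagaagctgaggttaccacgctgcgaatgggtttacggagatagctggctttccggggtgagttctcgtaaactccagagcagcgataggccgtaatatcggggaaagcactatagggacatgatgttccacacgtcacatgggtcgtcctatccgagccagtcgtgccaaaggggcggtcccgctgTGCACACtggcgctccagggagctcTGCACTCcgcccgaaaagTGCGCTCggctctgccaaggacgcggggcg

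No window of Fkbp5, Tsc22d3, Mt1, Mt2 or Hsd11b1 held the full glucocorticoid element, which says only that these letters are absent from these short windows. In GENCODE M21 (GRCm38) the 2 metallothionein genes are neighbours on the plus strand of chromosome 8, Mt2 at 94172664 to 94173568 and Mt1 at 94179082 to 94180327, with 5513 bases between them. Sgk1 lies on chromosome 10 at 21882184 to 21999903 on the plus strand. The other genes lie on the minus strand, Fkbp5 on chromosome 17 at 28399094 to 28517527, Tsc22d3 on chromosome X at 140539528 to 140600659, Zbtb16 on chromosome 9 at 48654297 to 48836222 and Hsd11b1 on chromosome 1 at 193221634 to 193264075.

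The first question was how the genes were distributed over tissues. Hsd11b1, the enzyme that regenerates active corticosterone inside cells, had the widest span. Its level was 843.7 ± 146.3 CPM in liver (mean and SD over the 3 diets, n = 3 libraries, so the SD includes any effect of diet), 245.1 ± 125.3 in fat, 33.5 ± 1.32 in hippocampus, 10.6 ± 0.111 in hypothalamus and 0.506 ± 0.141 in colon, and no 2 neighbours in this order had overlapping ranges. The colon value rests on 12 to 17 counts per library. Nr3c1, the receptor gene, was far more even, from 56.4 ± 6.90 CPM in liver through 95.6 ± 8.15 in hypothalamus, 110.4 ± 4.36 in hippocampus and 116.8 ± 17.0 in colon to 130.6 ± 35.6 in fat. The ranges of fat, colon and hippocampus overlapped, while liver lay below the other 4 tissues in every library in CPM. That order did not hold in the deposited FPKM, described below. There the Nr3c1 means were 20.7 in colon, 17.1 in liver, 14.5 in hippocampus, 11.1 in fat and 9.34 in hypothalamus.

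Sgk1, a kinase that promotes sodium uptake in epithelia, was highest in colon at 476.4 ± 117 CPM and lowest in liver at 22.7 ± 8.87 CPM, a 21.0-fold difference. Hippocampus (174.1 ± 21.8 CPM) and fat (131.5 ± 74.3 CPM) had overlapping ranges, as did fat and hypothalamus (127.8 ± 45.4 CPM). Zbtb16, a zinc finger repressor strongly induced by glucocorticoids in many cells, was highest in fat at 192.9 ± 17.1 CPM and 27.2-fold lower in colon at 7.09 ± 0.380 CPM. Fkbp5, a co-chaperone that lowers the affinity of the receptor for hormone, stood at 199.6 ± 72.4 CPM in fat and 188.5 ± 13.8 in colon, with overlapping ranges, against 53.1 ± 8.60 in hypothalamus. Tsc22d3, which encodes the anti-inflammatory protein GILZ, ranged from 82.0 ± 8.81 CPM in hippocampus to 201.0 ± 35.9 CPM in fat. Mt1 had the narrowest span in CPM, 1.47-fold from liver (149.2 ± 41.3 CPM) to fat (218.8 ± 70.9 CPM), and all neighbouring tissues overlapped. Several of these orders differed in FPKM, as given below.

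**Figure D1:**
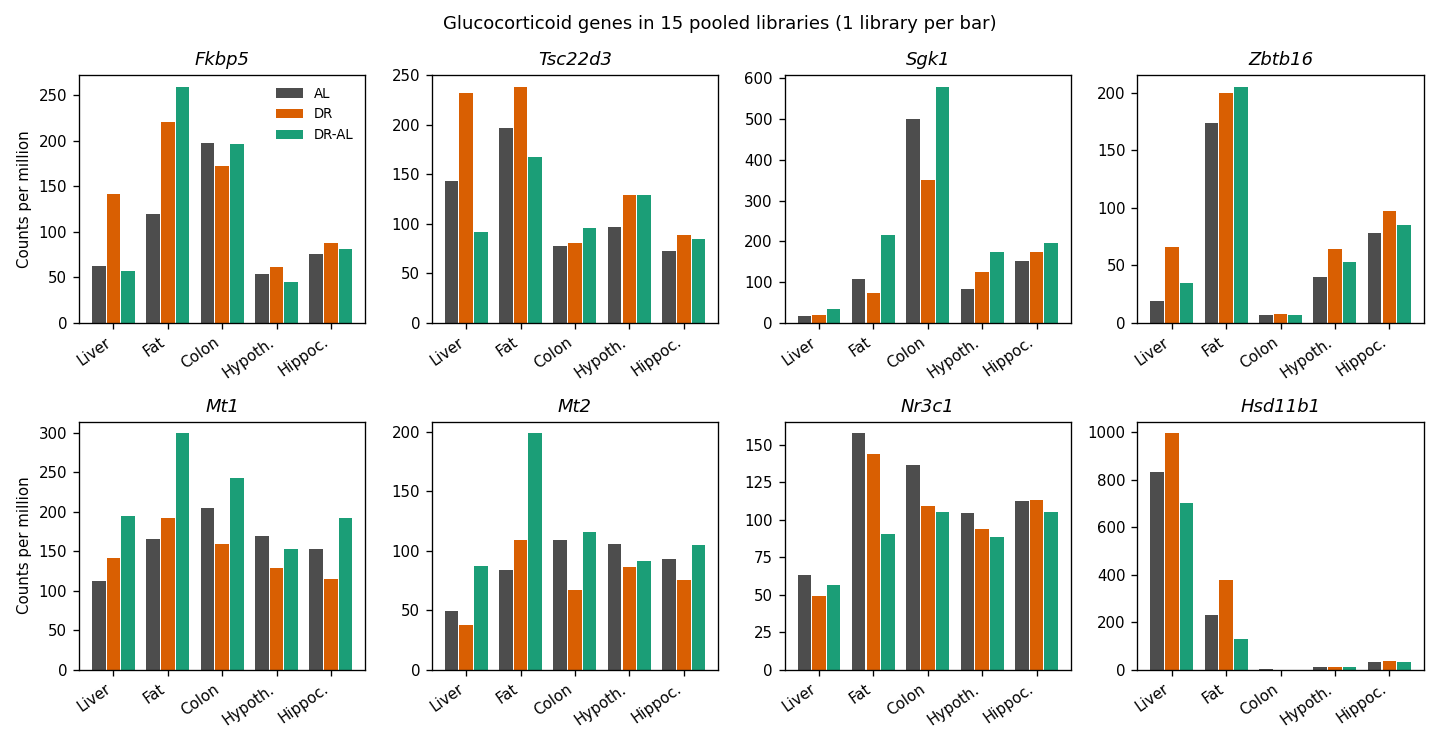
Expression of the 8 genes in CPM (vertical axes, from 0, a separate scale for each gene) in the 5 tissues; each bar is 1 pooled library, with AL in grey, DR in orange and DR-AL in green. In CPM, Hsd11b1 was highest in liver, Sgk1 was highest in colon, and Zbtb16 was highest in fat. In FPKM the Zbtb16 means of fat and liver were close (11.9 and 11.5).

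To compare genes with each other, the deposited FPKM values, which are divided by transcript length, were used. In AL liver, Hsd11b1 was the highest of the 8 genes at 1278 FPKM, followed by Mt1 at 800.6 and Mt2 at 530.8, and Zbtb16 was the lowest at 5.59 FPKM. In AL fat, Mt1 led at 334.7 FPKM and Mt2 followed at 257.6, while Zbtb16 was again the lowest at 17.4 FPKM. In AL colon the order was Mt1 (696.3 FPKM), Mt2 (575.6) and Sgk1 (258.9), with Hsd11b1 lowest at 0.558 FPKM. Between tissues, mean FPKM over the diets gave another order than CPM for some genes. Mt1 was highest in liver (1008 FPKM) and lowest in hypothalamus (235.5), with fat at 252.0. Tsc22d3 was highest in liver (163.0, against 49.3 in fat) and Fkbp5 in colon (63.8, against 23.1 in fat). Zbtb16 was at 11.9 in fat and 11.5 in liver, and its highest library was DR liver (18.5). Hsd11b1 stayed highest in liver and Sgk1 in colon.

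In liver, 3 classical targets of the receptor were higher after the month of DR. Fkbp5 was at 62.1, 141.2 and 57.2 CPM in the AL, DR and DR-AL libraries. The log2 fold change of DR against AL was 1.19 (interval 1.10 to 1.28), and that of DR-AL against AL was -0.12 (-0.22 to -0.01) and was not called. Fkbp5 was thus high in the DR library alone.

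Zbtb16 had the largest difference of the 8 genes in liver. It was at 18.6, 66.0 and 34.3 CPM in AL, DR and DR-AL, a log2 fold change of 1.83 (1.67 to 1.98) for DR and 0.88 (0.72 to 1.05) for DR-AL against AL. Both calls were higher, and DR-AL lay between the other libraries. Tsc22d3 was at 142.9, 232.6 and 91.9 CPM, with log2 fold changes of 0.70 (0.64 to 0.76) for DR and -0.64 (-0.71 to -0.56) for DR-AL against AL. It was called higher in DR and lower in DR-AL, so that the AL library lay between the others.

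The metallothioneins and Sgk1 were highest in the liver of DR-AL mice. Mt1 was at 112.4, 141.4 and 194.0 CPM in AL, DR and DR-AL, and was called higher both in DR (log2 fold change 0.33, 0.26 to 0.40) and in DR-AL (0.79, 0.72 to 0.85); the call in DR was lost with median-of-ratios size factors. Mt2 was at 49.5, 37.1 and 87.2 CPM, lower in DR (-0.42, -0.55 to -0.29) and higher in DR-AL (0.82, 0.71 to 0.92). The 2 neighbouring genes therefore moved in opposite directions in DR liver, where the ratio of Mt2 to Mt1 counts was 0.263, the lowest of the 15 libraries (median 0.545, highest 0.675). Sgk1 was at 16.9, 18.4 and 32.9 CPM, and was called higher in DR-AL (0.96, 0.79 to 1.14).

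Genes of hormone reception and activation differed less in liver. Nr3c1 was at 63.0, 49.2 and 56.8 CPM and was called lower in DR (-0.36, -0.47 to -0.24). Hsd11b1 was at 833.2, 994.9 and 702.9 CPM, and its log2 fold changes against AL, 0.26 in DR and -0.25 in DR-AL, were below the fold threshold. DR-AL against DR passed it, with -0.50 (-0.53 to -0.47). In all, 4 of the 8 genes were called higher and 2 lower in DR liver, where 18.0% of all 17408 genes tested were called higher and 9.92% lower. In DR-AL liver 4 were called higher and 1 lower (15% and 15.8% of all genes), and for DR-AL against DR 3 were called higher (Sgk1, Mt1, Mt2) and 4 lower (Fkbp5, Tsc22d3, Zbtb16, Hsd11b1), against 16.9% and 24.0% of all genes. Of all called genes in DR liver, 64.5% were higher with library totals and 50.6% with size factors.

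**Figure D2:**
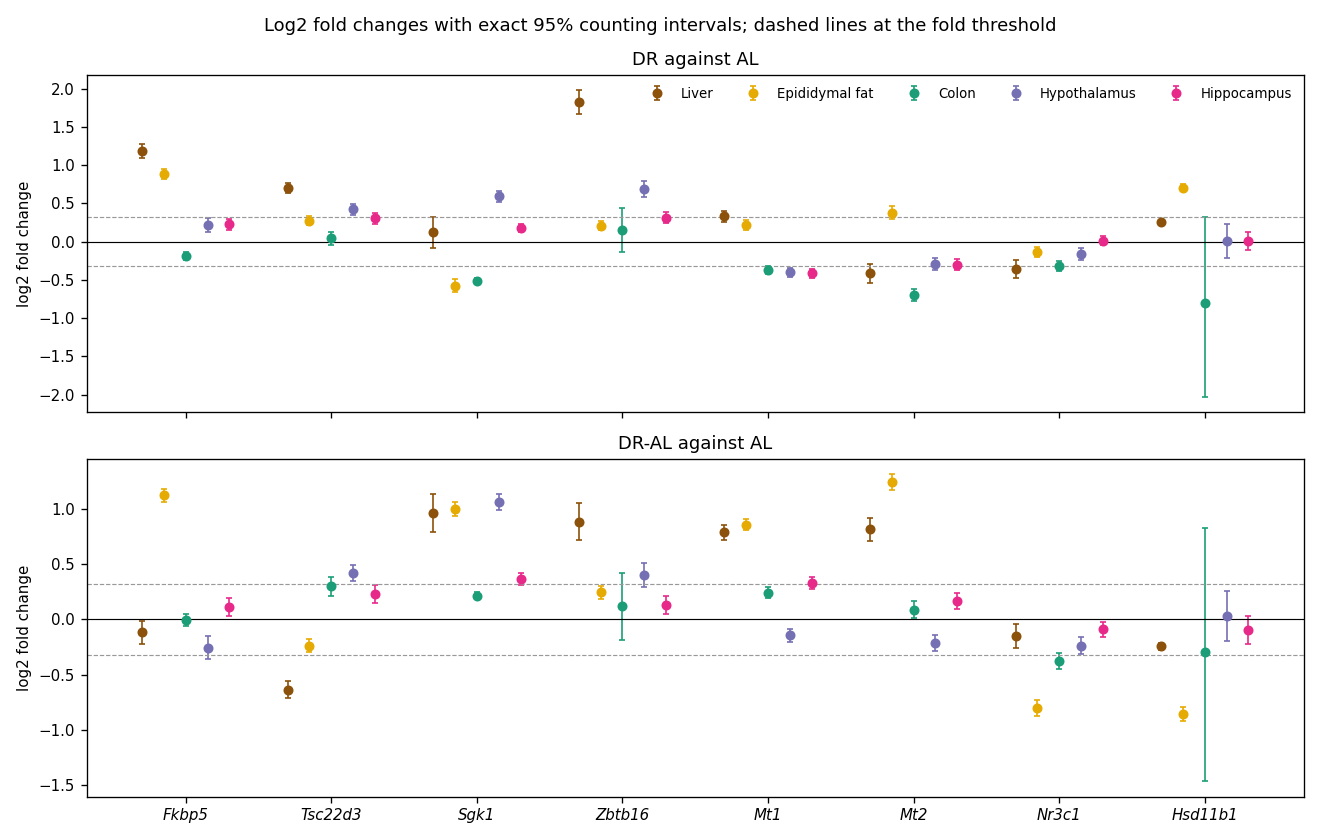
Log2 fold changes (vertical axes) of the 8 genes for DR against AL (top) and DR-AL against AL (bottom) in 5 tissues (colours); bars are exact 95% counting intervals, and dashed lines mark the fold threshold. Zbtb16 and Fkbp5 of liver were the highest points in DR, and Sgk1 lay above 0 in all 5 tissues in DR-AL, which for fat holds in counts and not in FPKM.

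In epididymal fat the values depended on scaling more than in the other tissues. With library totals the median log2 fold change over the 17306 genes averaging 10 or more counts was 0.24 for DR against AL, 0.34 for DR-AL against AL and 0.24 for DR-AL against DR, so the called values against AL are also given after subtracting that median. In the other 4 tissues these medians lay within 0.1 of 0. In FPKM as deposited the fat medians were -0.34, -0.83 and -0.36 on the log2(FPKM + 1) scale, opposite in sign to those of the counts, and -0.51, -1.31 and -0.65 without the pseudocount, so that a distance from the FPKM median depends on the pseudocount. Of the values of the 8 genes called in fat, 6 turned sign with FPKM as deposited, and they are named as they come. Relative to the medians of both measures (FPKM pseudocount 1), 6 of 8 signs matched for DR against AL, with Tsc22d3 and Mt2 opposite. All 8 matched in each other comparison. The DR-AL values against AL that turned were then 0.33 for Fkbp5, 0.25 for Sgk1, 0.08 for Mt1 and 0.49 for Mt2. Mt1 in DR-AL against DR was 0.18 and Mt2 in DR -0.04.

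Fkbp5 was at 119.0, 220.7 and 259.1 CPM in AL, DR and DR-AL fat. Against AL the log2 difference came to 0.89 (0.83 to 0.96) for DR and 1.12 (1.06 to 1.18) for DR-AL, or 0.65 and 0.79 relative to the median of all genes. In FPKM the DR-AL value turned to -0.50. Fkbp5 was called higher in both groups, whereas in liver it was called in DR and not in DR-AL; the difference between the tissues was not tested.

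Sgk1 was at 107.5, 72.2 and 214.9 CPM in fat, lower in DR (-0.57, -0.66 to -0.49) and higher in DR-AL (1.00, 0.93 to 1.06). Relative to all genes these were -0.81 and 0.66, and FPKM turned the DR-AL value to -0.58. Mt1 was at 165.0, 192.2 and 299.1 CPM and Mt2 at 84.0, 109.2 and 198.7 CPM. Both were called higher in DR-AL, Mt1 by 0.86 (0.80 to 0.91) and Mt2 by 1.24 (1.17 to 1.31), or 0.52 and 0.91 relative to all genes, and both signs turned in FPKM (-0.76 and -0.35). For Mt1 the difference of DR-AL from DR, 0.64 in counts, also turned, to -0.18. In DR fat only Mt2 was called (0.38, 0.29 to 0.46), which was 0.14 relative to all genes, turned to -0.37 in FPKM and was lost with size factors.

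Hsd11b1 was at 230.8 CPM in AL fat, 376.9 in DR fat and 127.5 in DR-AL fat, called higher in DR (0.71, 0.66 to 0.76) and lower in DR-AL (-0.86, -0.92 to -0.80), or 0.47 and -1.19 relative to all genes. It also had the largest liver part in the AL fat library. At a liver share of 13.7%, 114.5 CPM or 49.6% of its AL fat level would come from liver. Against the remaining 116.2 CPM the log2 differences were 1.70 for DR and 0.13 for DR-AL. This remainder was not rescaled to a full library, which would lower both values. The share itself had quartiles of 11.2% and 18.8% over the 68 genes, so the sign in DR-AL is not settled. For the other 7 genes the liver part was 1.48% to 9.96% of the AL fat level and turned no sign. Nr3c1 was at 157.6, 143.9 and 90.3 CPM and was called lower in DR-AL (-0.80, -0.88 to -0.73, and -1.14 relative to all genes), and it was lower on every scale computed.

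Tsc22d3 (197.2, 238.6 and 167.1 CPM) and Zbtb16 (173.3, 200.05 and 205.3 CPM) were not called against AL in fat, and both were negative in FPKM in both groups (-0.43 and -1.80 for Tsc22d3, -0.52 and -1.27 for Zbtb16). In counts, 3 of 8 genes were called higher and 1 lower in DR fat, where 35.2% of all 20382 genes tested were called higher and 10.4% lower. In DR-AL fat 4 were called higher and 2 lower, against 46.0% and 11.9% of all genes, and for DR-AL against DR 3 were called higher (Sgk1, Mt1, Mt2) and 3 lower (Tsc22d3, Nr3c1, Hsd11b1), against 38.3% and 13.3%. The share of higher among all called genes fell from 77.3% to 61.2% for DR, from 79.5% to 57.5% for DR-AL and from 74.3% to 62.9% for DR-AL against DR when size factors replaced library totals, and Tsc22d3 was then called lower in DR-AL.

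**Figure D3:**
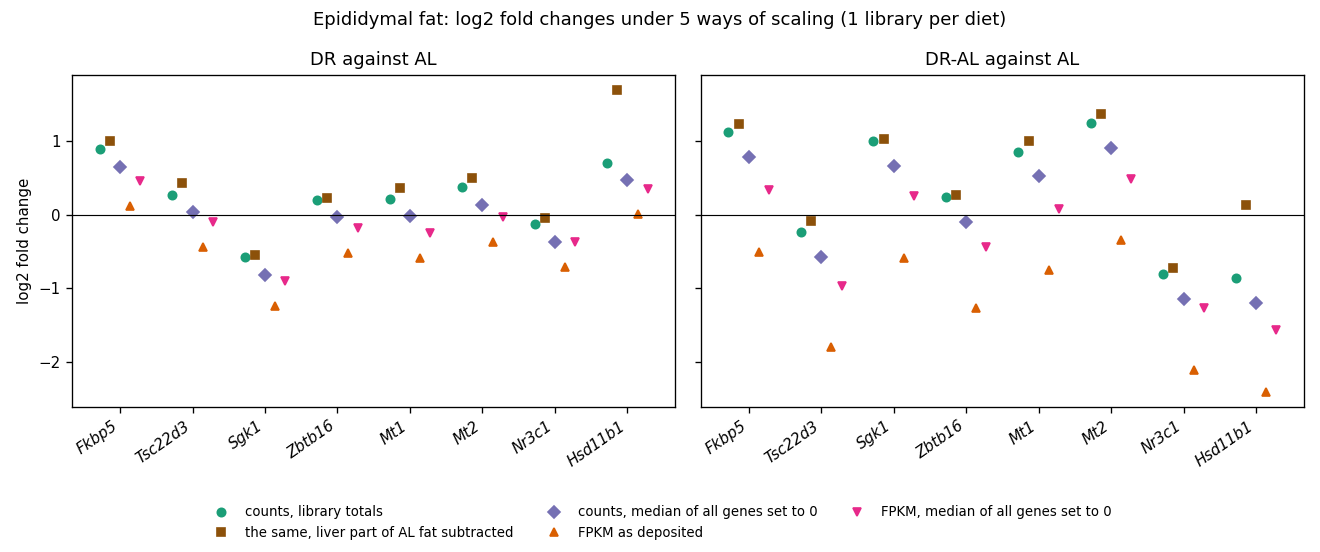
Log2 fold changes (vertical axis) of the 8 genes in epididymal fat for DR and DR-AL against AL under 5 ways of scaling; each symbol is a difference between 2 pooled libraries, and FPKM values use a pseudocount of 1. Sgk1 in DR and Nr3c1 in both groups lay below 0 on every scale. Hsd11b1 in DR-AL was above 0 only after the liver part was subtracted, with the remainder not rescaled to a full library.

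In colon no gene of the 8 was called higher after DR, and Sgk1, Mt1 and Mt2 were called lower. Sgk1 was at 499.8, 349.6 and 579.9 CPM in AL, DR and DR-AL, lower in DR by a log2 fold change of -0.52 (-0.55 to -0.48), while the DR-AL value of 0.21 (0.18 to 0.25) was below the fold threshold. Mt1 was at 204.9, 158.5 and 242.4 CPM and Mt2 at 108.6, 67.2 and 115.6 CPM. The DR library was the lowest for all 3 genes, with -0.37 (-0.43 to -0.32) for Mt1 and -0.69 (-0.77 to -0.61) for Mt2, and DR-AL was close to AL.

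Nr3c1 was at 136.2, 109.1 and 105.0 CPM in colon and was called lower in DR-AL (-0.38, -0.45 to -0.30). Its DR value of -0.32 (-0.39 to -0.25) lay just under the fold threshold. Fkbp5 (197.0, 172.5 and 196.0 CPM) and Tsc22d3 (78.0, 80.2 and 95.8 CPM) were not called against AL. Zbtb16 (6.7, 7.4 and 7.2 CPM) and Hsd11b1 (0.6, 0.4 and 0.5 CPM) were low in all 3 libraries, and for Hsd11b1 the interval of DR against AL, -2.03 to 0.32, shows how little this depth could resolve. The 3 genes lower and none higher in DR stood against 10.6% and 9.04% of 18242 genes, 1 lower and none higher in DR-AL against 8.50% and 5.83%, and 3 higher and none lower for DR-AL against DR against 6.78% and 7.67%.

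In hypothalamus 3 genes were higher in both DR and DR-AL. Sgk1 was at 83.4, 125.8 and 174.2 CPM in AL, DR and DR-AL. Both differences from AL were called, 0.59 (0.52 to 0.67) for DR and 1.06 (0.99 to 1.13) for DR-AL, and DR-AL was above DR. Tsc22d3 was at 96.7, 129.6 and 129.2 CPM, with 0.42 (0.35 to 0.49) in both groups. Zbtb16 was at 40.1, 64.5 and 52.8 CPM, with 0.69 (0.58 to 0.79) and 0.40 (0.29 to 0.51). For each of these genes the AL library was the lowest of the 3.

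Mt1 was lower in DR hypothalamus, at 128.4 CPM against 169.1 in AL (-0.40, -0.46 to -0.34), and stood at 153.0 in DR-AL. Fkbp5 was at 53.1, 61.7 and 44.5 CPM and was called only for DR-AL against DR (-0.47, -0.57 to -0.37). Mt2 (106.0, 86.6 and 91.5 CPM), Nr3c1 (104.6, 93.5 and 88.7 CPM) and Hsd11b1 (10.5, 10.6 and 10.8 CPM) were not called. In DR, 3 of 8 genes higher and 1 lower compared with 4.33% and 2.72% of 19320 genes, 3 higher and none lower in DR-AL with 6.06% and 9.02%, and 1 higher (Sgk1) and 1 lower (Fkbp5) for DR-AL against DR with 2.82% and 6.80%. The 5 telencephalic genes given above were called higher in DR and DR-AL than in AL, but Wfs1, Prox1 and Camk2a of the same list were not. Wfs1 was called lower in both groups (-0.48 and -0.88) and Prox1 in DR-AL (-0.33). Camk2a was not called (0.03 and -0.29). AL hippocampus held more Sgk1 (152.7 CPM) and Zbtb16 (78.0 CPM) but less Tsc22d3 (72.2 CPM) than AL hypothalamus. In FPKM the order held for Sgk1 and Zbtb16, but Tsc22d3 was slightly higher in AL hippocampus (31.1) than in AL hypothalamus (29.6). The 6 smooth muscle markers summed to 27.1, 69.9 and 33.9 CPM and the 3 loci of red blood cell markers to 82.2, 42.2 and 26.9 CPM in AL, DR and DR-AL hypothalamus. The part of these cells in the differences was not tested.

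Hippocampus had the fewest calls. Mt1 was at 152.8, 114.7 and 191.9 CPM in AL, DR and DR-AL, called lower in DR (-0.41, -0.47 to -0.35) and just above the threshold in DR-AL (0.33, 0.27 to 0.38). Mt2 ran the same way at 93.1, 75.6 and 104.7 CPM, and was called only for DR-AL against DR (0.47, 0.39 to 0.55). The 6 choroid plexus markers, all detected and all called lower in DR, summed to 2918, 1788 and 2841 CPM in the same libraries, and their part in the metallothionein values was not tested. Sgk1 was at 152.7, 173.4 and 196.3 CPM and was called in DR-AL (0.36, 0.31 to 0.42).

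Fkbp5 (74.96, 87.7 and 81.2 CPM), Tsc22d3 (72.2, 89.2 and 84.8 CPM) and Zbtb16 (78.0, 97.0 and 85.2 CPM) were lowest in AL and highest in DR in hippocampus, with log2 fold changes in DR of 0.23, 0.30 and 0.31, all below the fold threshold. Nr3c1 (112.3, 113.5 and 105.4 CPM) and Hsd11b1 (34.1, 34.3 and 32.0 CPM) differed least. No gene higher and 1 lower in DR compared with 1.36% and 2.67% of 18804 genes, 2 higher (Sgk1, Mt1) and none lower in DR-AL with 3.99% and 2.16%, and 2 higher (Mt1, Mt2) and none lower for DR-AL against DR with 3.63% and 1.26%.

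Over the 40 pairs of gene and tissue, 10 were called higher and 8 lower in DR, 13 higher and 4 lower in DR-AL against AL, and 12 higher and 8 lower for DR-AL against DR. Over the 5 tissues the share of all genes called ran from 1.36% to 35.2% higher and 2.67% to 10.6% lower in DR, from 3.99% to 46.0% and 2.16% to 15.8% in DR-AL against AL, and from 2.82% to 38.3% and 1.26% to 24.0% for DR-AL against DR. Without epididymal fat, whose libraries were doubted after they were seen, these counts were 7 and 7, 9 and 2, and 9 and 5 of 32. When the variation between libraries was estimated from the 3 libraries of each tissue, which takes any effect of diet as error, 0 and 0, 1 and 0, and 1 and 0 pairs were called. By gene and in counts, Tsc22d3 and Zbtb16 had a positive log2 fold change in DR in 5 of 5 tissues, each called in 2. Fat turned for both in FPKM, and for Zbtb16 also relative to the median of all genes (-0.03). Sgk1 was positive in DR-AL in 5 of 5 tissues (0.21 to 1.06), called in 4 (fat turned in FPKM), and its DR values ran from -0.57 in fat to 0.59 in hypothalamus. Mt1 and Mt2 were higher in DR-AL than in DR in 5 of 5 tissues, each called in 4, with Mt1 of fat turned in FPKM. Nr3c1 was lower in DR-AL than in AL in 5 of 5 tissues (-0.80 to -0.09), called in 2, but in FPKM hippocampus turned, from 13.6 in AL to 14.6 in DR-AL.

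The tissues were then used together in a single fit over all 15 libraries with tissue as a term (edgeR quasi-likelihood test), which asks whether a gene shifted with diet in the same direction across tissues. Since a diet group's tissues share mice, they do not stand for separate animals. None of the 8 genes passed an adjusted p of 0.05 in any of the 3 comparisons, where 0.00610%, 0% and 0.00610% of the 16381 genes tested were called (1, 0 and 1 genes). At an unadjusted p below 0.05 the fit held 1, 3 and 3 of the 8 genes and 588, 751 and 616 of all genes, which is 3.59%, 4.58% and 3.76%. DESeq2 called 0, 0 and 1 of the 8, and 22, 22 and 17 of 23589 genes.

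Zbtb16 had the largest estimate for DR against AL, 0.57 ± 0.21 (log2, SE, unadjusted p = 0.0199 and adjusted p = 1.00 by edgeR's quasi-likelihood test). With library totals it was higher in 5 of 5 tissues. Its fat value of 0.21 was -0.03 relative to the median of all genes and -0.52 in FPKM. For DR-AL against AL, Sgk1 was at 0.66 ± 0.20 (higher in 5 of 5 tissues), Mt1 at 0.35 ± 0.14 (higher in 4 of 5) and Nr3c1 at -0.38 ± 0.14 (lower in 5 of 5), all with an adjusted p of 0.854 in edgeR. For DR-AL against DR, Sgk1 was at 0.75 ± 0.20, Mt1 at 0.55 ± 0.14 and Mt2 at 0.70 ± 0.18, each higher in 5 of 5 tissues and each with an adjusted p of 0.971 in edgeR. DESeq2 gave Mt1 an adjusted p of 0.0219 in that comparison, the lowest of a range that reached 1.00 over the alternatives of the fit.

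**Figure D4:**
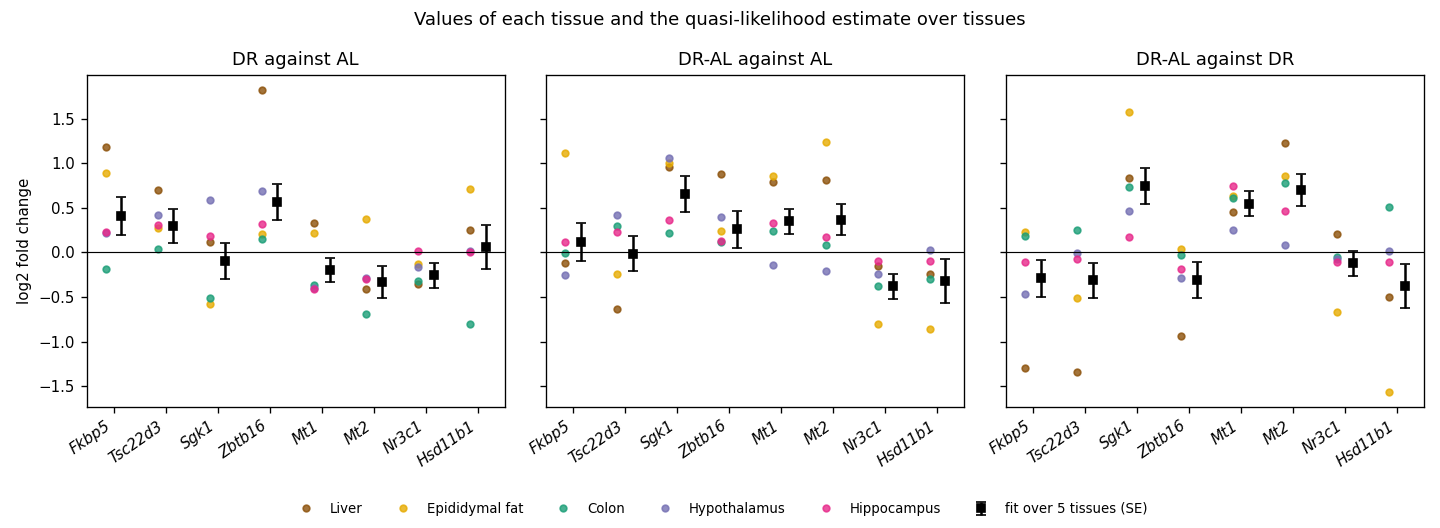
Log2 fold changes (vertical axis) of the 8 genes in each tissue (coloured points, 1 pair of pooled libraries each) beside the quasi-likelihood estimate over the 5 tissues (black squares, bars are SE) for the 3 comparisons. All 5 points lay above 0 for Sgk1 in DR-AL against AL and for Sgk1, Mt1 and Mt2 in DR-AL against DR, in counts; in FPKM, fat turned for Sgk1 in the former and Mt1 in the latter.

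Other genes known as targets of the receptor were counted as a list of 26, all measured. In DR liver 10 were called higher and 6 lower, against 18.0% and 9.92% of all genes. The median log2 fold change was 0.15 against 0.08 for all genes. Bcl6, a transcriptional repressor, was at 16.6, 68.0 and 24.3 CPM in AL, DR and DR-AL liver, and Arrdc2, an arrestin domain protein, at 14.9, 56.2 and 6.86 CPM, log2 fold changes in DR of 2.03 (1.88 to 2.19) and 1.91 (1.74 to 2.08). Igfbp1, a binding protein of insulin-like growth factors that insulin represses, went the other way at 112.1, 25.8 and 247.4 CPM, as did Pdk4, a kinase that blocks pyruvate oxidation, at 12.7, 4.64 and 45.5 CPM. The list was therefore split in direction within liver, and 7 of its genes were called higher and 5 lower in DR-AL liver.

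In fat 5 of the 26 were called higher and 14 lower in DR (median -0.49 against 0.24 for all genes). Of all genes, 35.2% were called higher and 10.4% lower there. In DR-AL fat 10 were called higher and 7 lower, against 46.0% and 11.9% of all genes. Tat, a tyrosine aminotransferase, was at 274.2, 3.33 and 0.695 CPM in AL, DR and DR-AL fat, and it is made in quantity by liver, whose part here was not tested. Pck1, the gluconeogenic and glyceroneogenic enzyme, was at 4716, 1096 and 2657 CPM. In colon 2 were called higher and 9 lower in DR, with a median of -0.18 against 0.01 for all genes, led by Angptl4, an inhibitor of lipoprotein lipase, at 6.97, 1.41 and 5.95 CPM, and Pdk4 at 60.8, 31.0 and 64.7 CPM. In DR-AL colon 2 were called higher and 7 lower. Of all genes in colon, 9.04% were called higher and 10.6% lower in DR, and 5.83% and 8.50% in DR-AL.

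In the brain the list moved mostly in DR-AL. In hypothalamus 3 were called higher and 2 lower in DR, and 11 higher and 1 lower in DR-AL, with a median of 0.29 against -0.03 for all genes. Of all genes in hypothalamus, 4.33% were called higher and 2.72% lower in DR, and 6.06% and 9.02% in DR-AL. In hippocampus 2 were called higher and 3 lower in DR, and 8 higher and 2 lower in DR-AL, with a median of 0.25 against 0.00 for all genes. Of all genes in hippocampus, 1.36% were called higher and 2.67% lower in DR, and 3.99% and 2.16% in DR-AL. Angptl4 was at 5.46, 3.85 and 9.20 CPM in hypothalamus and at 3.53, 2.15 and 6.16 CPM in hippocampus, lowest in DR and highest in DR-AL in both. A further 3 genes, picked after their values were seen, had the same order of AL below DR-AL in both tissues: Cdkn1a, a cell cycle inhibitor, was at 14.996, 15.7 and 29.9 CPM in hypothalamus and 8.32, 9.61 and 20.6 CPM in hippocampus, Plin4, a lipid droplet protein, at 17.3, 17.6 and 36.4 CPM and 13.7, 9.80 and 18.8 CPM, and Arrdc2 at 15.5, 18.2 and 28.9 CPM and 12.4, 14.4 and 18.6 CPM.

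**Figure D5:**
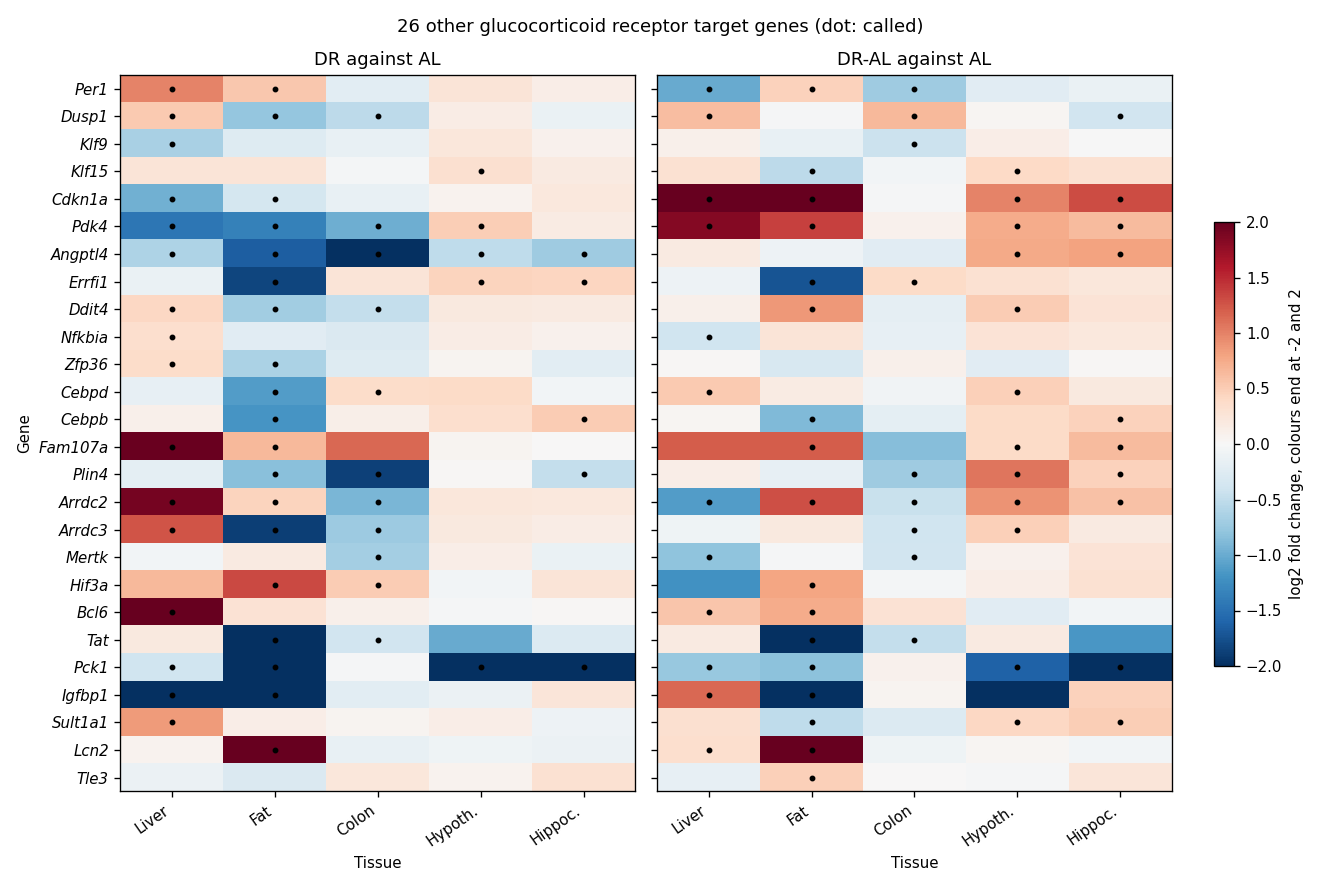
Log2 fold changes (colour, red higher and blue lower, ending at -2 and 2) of 26 other glucocorticoid receptor target genes (rows) in the 5 tissues (columns) for DR against AL (left) and DR-AL against AL (right); a dot marks a called gene, and each cell compares 2 pooled libraries. In DR-AL, 11 genes were called higher in hypothalamus and 8 in hippocampus, where 6.06% and 3.99% of all genes were called higher.

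Hormone supply was described by 14 genes that bind, inactivate or transport corticosteroids or hold the receptor in its hormone-ready state. In liver, 4 were called higher and 2 lower in DR, and 2 higher and 3 lower in DR-AL. The shares of all genes called in each tissue and comparison, given above, are the background for these counts and for those of the lists that follow. Serpina6 encodes corticosteroid-binding globulin, the plasma carrier of the hormone, which liver secretes. It was at 301.6, 648.3 and 77.1 CPM in AL, DR and DR-AL liver, a log2 fold change of 1.10 (1.06 to 1.14) in DR and -1.97 in DR-AL. Srd5a1, which inactivates steroids by 5-alpha reduction, was at 103.0, 50.5 and 98.9 CPM, and H6pd, which supplies the cofactor that Hsd11b1 needs, at 461.8, 315.2 and 411.4 CPM, both lowest in DR.

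In fat, 3 were called higher and 5 lower in DR and 7 higher and 3 lower in DR-AL, where 46.0% of all genes were called higher and 11.9% lower. The co-chaperone Fkbp4, which competes with Fkbp5 for the receptor complex, was at 78.3, 165.4 and 223.7 CPM in fat, and the chaperone Hsp90aa1 at 169.3, 295.8 and 598.7 CPM. In colon 4 were called higher and 2 lower in DR and 5 higher and 2 lower in DR-AL, with Hsp90aa1 at 138.8, 237.1 and 308.7 CPM. In hypothalamus none was called in DR, and 1 higher and 1 lower in DR-AL. In hippocampus none of the 14 was called in either comparison.

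Genes of peptides linked to the hormonal axis were read in hypothalamus. The pituitary was not sampled, and corticotropin itself was not measured. Within hypothalamus, the paper places Pomc expression in neurons of the arcuate nucleus. Pomc, the precursor of corticotropin and of melanocortins, was at 100.4, 32.1 and 22.7 CPM in AL, DR and DR-AL, and Avp, vasopressin, at 471.2, 267.1 and 157.7 CPM, both called lower in both groups. Crh, corticotropin-releasing hormone, was at 1.68, 2.35 and 8.27 CPM. It was called higher in DR-AL (log2 fold change 2.28, 1.85 to 2.76) but not in DR (0.48). The paper also measured Crh and Pomc by real-time PCR in the individual mice whose RNA was pooled here. It reports that Crh rose in DR and rose further in DR-AL, and that Pomc fell in DR and stayed low in DR-AL. The missing call for Crh in DR is therefore no evidence that DR left Crh unchanged. Of the 6 genes of this list tested in hypothalamus, 1 was called higher and 2 lower in DR, and 2 higher and 2 lower in DR-AL. The hypothalamic and telencephalic markers of these libraries are given above, and their part in the peptide values was not tested.

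Because the metallothioneins also respond to metals, 8 other genes of zinc handling were counted. In liver 3 of 6 tested were called higher and none lower in DR, among them Slc39a14, a zinc and iron importer, at 138.3, 194.0 and 122.5 CPM. In colon and hypothalamus none was called in DR, and in hippocampus none higher and 1 lower. In fat 2 of 7 tested were called higher and 4 lower in DR. In DR-AL, where Mt1 and Mt2 were highest in liver and in fat counts, 2 of these genes were called higher and 1 lower in liver, 3 higher and 2 lower in fat, 1 lower in colon, and none in either brain region. Acute phase genes, which glucocorticoids and cytokines induce in liver, were called higher in 1 and lower in 4 of 12 cases in DR liver, and higher in 4 and lower in 4 in DR-AL liver. Saa1 was at 112.8, 6.89 and 34.1 CPM and Saa2 at 45.3, 2.57 and 13.8 CPM.

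Clock genes also differed between the diets, and corticosterone itself has a daily rhythm. In liver 7 of 13 measured clock genes were called higher and 2 lower in DR, and 3 higher and 8 lower in DR-AL. Dbp was at 57.3, 126.7 and 16.8 CPM in AL, DR and DR-AL liver and Per1, also a direct target of the receptor, at 34.8, 69.4 and 17.3 CPM. In fat 6 were called higher and 1 lower in DR and 4 higher and 7 lower in DR-AL, in colon 3 and 1, then 3 and 5, in hypothalamus 4 and 0, then 0 and 2, and in hippocampus 0 and 0, then 0 and 1. The hour of tissue collection is not given in the sources used here, and the part of the clock in these results was not tested. Immediate early genes were called higher for 6 of 9 genes in DR hippocampus and for 5 of 9 in DR hypothalamus, with none lower in either. In DR-AL they went 1 higher and 4 lower in hippocampus and 2 higher and 1 lower in hypothalamus. In liver 1 was higher and 2 lower in DR and 3 higher and none lower in DR-AL, in fat 4 and 3, then 5 and 0, and in colon 1 and 0, then 5 and 0.

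Lastly, genes whose levels varied most like each member were listed from log2(CPM + 0.5) values centred within tissue, over the 15 libraries and 9802 genes with at least 20 counts in every library. These are descriptions without a test, and the points share pools, tissues and depth. Mt2 was most like Eme2 (r = 0.97) and Agbl3 (0.93), Mt1 most like Smox (0.93) and Rpl41 (0.90), and Sgk1 most like Neat1 (0.94) and Ocln (0.90). Fkbp5 was most like Rps25 (0.96) and Tsc22d3 most like Rfng (0.95), while Zbtb16 had its best match in Tmem41b (0.89). Nr3c1 was most like a locus that joins Acads and Gm13826 (0.97). Hsd11b1 fell below 20 counts in colon and was not placed. Among the members themselves, Mt1 and Mt2 were the closest pair (r = 0.86), followed by Fkbp5 with Zbtb16 (0.69), Sgk1 with Mt2 (0.67) and Sgk1 with Mt1 (0.63), and Tsc22d3 with Mt2 was the most opposite pair (-0.65).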

How the data were processed

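Total RNA of 5 mice per group was pooled by the authors, depleted of rRNA and sequenced as stranded libraries. Per their methods, reads were trimmed, aligned with duplicates removed in the Strand software, and quantified with DESeq; the labels name mm9 and DESeq2 and the methods mm10, and of 22692 gene symbols only 13.7% overlapped their GRCm38 position at the coordinates of the file, so positions were taken from GENCODE M21. The authors deposited raw read counts and FPKM (read counts scaled by transcript length and library size) per locus in a single table. Pairs of genes merged on a locus (Lcn2, Sult1a1) were kept as such.

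From the deposited counts, CPM was computed over named loci (unnamed loci held 0.258% to 1.39%). Each tissue was tested with the Z test on square-rooted counts divided by library totals, with Poisson variance and Benjamini-Hochberg adjustment over genes with at least 1 count. Log2 fold changes used a pseudocount of 0.5 scaled counts. All 15 libraries were fitted with edgeR 4.0.16 (quasi-likelihood, TMM, filterByExpr, tissue as a term) in R 4.3.3, with DESeq2 1.42.0 as an alternative; other steps used Python 3.11.15 with scipy 1.17.1. Both tests were run on simulated data, with counting error only for the Z test and with independent libraries of 1 common spread for the fit. Such runs cannot show how either test holds under the real spread between mice. Alternatives were size factors, totals that left out the top 10 genes, count filters, a fold of 2, an edgeR exact test with a biological coefficient of variation of 0.1 or estimated, FPKM with pseudocounts of 0.1 and 1, and each tissue left out. No replicate check within a tissue was possible. P-values of the Z test hold counting error only, and those of the fit over tissues measure spread between these libraries only.

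In every tissue the 8 members were named, and from each other list up to 4 genes with the largest absolute log2 fold change for DR against AL and a mean of at least 100 counts; genes outside this rule are marked as such or stand in a count. The members and lists were chosen with earlier results of these data known. Lcn2 and Per1 stand in 2 lists. Ciart and Adgre1 were not found in the table. The liver share of fat was the median over 68 genes of at least 1000 CPM in AL liver. They stood at or below 1% of that in AL colon, hypothalamus and hippocampus. Fat was not part of this rule, so the genes need not be absent from fat cells.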

Additional observations from a re-analysis of the deposited data

Results flagged for a closer look

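For 4 members, log2 fold changes were called in opposite directions in 2 tissues under the same comparison; the differences were not tested, since each tissue has 1 library per diet. Sgk1 in DR against AL was higher in hypothalamus (log2 fold change 0.59) and lower in fat (-0.57) and colon, a difference of 1.17 between hypothalamus and fat. Mt1 in DR was higher in liver (0.33) and lower in colon, hypothalamus and hippocampus (-0.41), a difference of 0.74 between liver and hippocampus; the call in liver was lost with size factors. Mt2 in DR was higher in fat (0.38) and lower in liver and colon (-0.69), a difference of 1.07 between fat and colon; the call in fat was lost with size factors and its sign turned in FPKM (-0.37). Tsc22d3 in DR-AL was higher in hypothalamus (0.42) and lower in liver (-0.64), a difference of 1.06.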

How the results depend on the processing

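Of 120 log2 fold changes of the members (8 genes, 5 tissues, 3 comparisons), 117 kept their side of the call with size factors and 119 with totals without the 10 most abundant genes. Values called in the main setting also had to keep their direction, while the direction of uncalled values was not checked. With FPKM, called by fold alone, 91 kept their side at a pseudocount of 0.1 and 93 at 1. Of the values called in counts, 6 reversed, all in fat, where FPKM shifts the median of all genes: at 0.1 and 1, Mt2 in DR to -0.376 and -0.375, and against AL in DR-AL Fkbp5 to -0.52 and -0.50, Sgk1 to -0.60 and -0.58, Mt1 to -0.76 and -0.76 and Mt2 to -0.35 and -0.35, and Mt1 in DR-AL against DR to -0.18 and -0.18. Values not called in counts were not counted as reversed, though some turned. Among these were Tsc22d3 and Zbtb16 in DR fat and Nr3c1 in DR-AL against AL hippocampus. Hsd11b1 in DR-AL fat reversed to 0.13 with the liver part subtracted and the remainder not rescaled. This alternative was chosen after seeing the data.

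Counts of pairs called depended most on the error assumed. For DR against AL the 10 higher and 8 lower became 2 and 0 at a fold of 2, 5 and 2 with a coefficient of variation of 0.1, and 0 and 0 with the estimated one (0.312 in liver, 0.758 in fat, 0.164 in colon, 0.124 in hypothalamus and 0.0701 in hippocampus), and the lower ones 14 and 13 with FPKM. For DR-AL against AL the 13 and 4 became 3 and 0 at a fold of 2 and 1 and 0 with the estimated coefficient, and the lower ones 9 with FPKM at either pseudocount and 2 without fat. For DR-AL against DR the 12 and 8 became 2 and 3 at a fold of 2 and 1 and 0 with the estimated coefficient, the higher ones 7 at 0.1, and the lower ones 5 without fat. In the fit over tissues, 0 members were called with each tissue left out in turn, and 1 with DESeq2 for DR-AL against DR. No paired analysis was possible because the labels carry no replicate numbers. With 1 library per group, differences between mice and between preparations were not measured.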
